A study of Mus musculus with 12 samples.

Results

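The dynein and kinesin motor genes of the mouse were followed across 4 isolated male germ cell types. They were chosen as the probe sets whose single gene symbol in the platform annotation begins with Dnah, Dnai, Dnal, Dync, Dynl, Kif or Klc, without use of any measured value. The choice gave 127 of 36701 probe sets, or 61 of 15964 named genes, and 7 further probe sets that carry several gene symbols (5 of the near-identical Dynlt1 family, 2 of Dnah7b and Dnah7c) were left out. The cells were spermatogonia of type A and of type B, spermatocytes at pachytene, and round spermatids. Their total RNA was measured on the Affymetrix arrays U74Av2, U74Bv2 and U74Cv2, 3 designs that carry different probe sets, with 1 array for each cell type on each design. The labels call each of the 12 arrays a singlet, name no treatment or genotype, and give neither the isolation method nor the age or strain of the mice in the sources used here. Of the motor probe sets, 47 were on U74Av2, 48 on U74Bv2 and 32 on U74Cv2.

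Dyneins are motors that walk toward the minus ends of microtubules, and most kinesins walk toward the plus ends. Axonemal dyneins form the arms that bend cilia and the sperm tail, cytoplasmic dynein 1 carries cargo and positions nuclei and spindles, and cytoplasmic dynein 2 returns the trains of intraflagellar transport that kinesin-2 brings to the tip of a cilium or flagellum. Spermatogonia divide by mitosis, pachytene spermatocytes are in the long prophase of the first meiotic division, and round spermatids are haploid cells that begin to build the flagellum.

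With single arrays there is no replicate error, no test could be run, and precision is limited by the number of arrays. Signals are arbitrary linear units, and levels are compared only within a probe set. A signal under a floor of 50.01 to 50.03 units (0.4 of the trimmed mean of the arrays) was treated as not measured, and a ratio against it is a lower bound, given as "at least". Negative controls, which match no mouse RNA, exceeded that floor in 22 of 228 readings, 0 on U74Av2 (highest 32.7), 5 on U74Bv2 (highest 62.4) and 17 on U74Cv2 (highest 103.5), so signals just over the floor lie within background on the last 2 designs. For control probe sets present on all 3 designs, the log2 ratio varied between designs by an SD of 0.26 for type B spermatogonia over type A (the B step), 0.23 for spermatocytes over type B (the pachytene step) and 0.44 for spermatids over spermatocytes (the spermatid step), which covers the arrays and not the preparations of cells. Between 45.9% and 61.2% of probe sets on an array exceeded the floor.

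Each gene is represented by its probe set with the highest mean signal. Of the 61 motor genes, 50 exceeded the floor in 1 or more cell types, as did 13003 of all genes. The other 11 did not: Dnah5, Dynlt1b, Kif18a, Kif20b, Kifc5b, Kif19a, Kif13a, Kif1c, Kif3c, Kifc2 and Kifc3. Probe sets under the floor in every cell type numbered 20 among the 50 measured genes, and such sets enter the mean over probe sets used as an alternative. Of the 127 probe sets, 91 exceeded it in 1 or more cell types, and 41 have an ending (such as _f, _i, _r or _s) by which the manufacturer marks sets that may share sequence with other genes or hold fewer probes. Genes with near-identical copies, such as Dnah7a and Kifc1, cannot be told from those copies here.

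The labels were set beside cell type markers. The summed signal of 7 spermatogonial markers was 4315 in type A, 3290 in type B, 565 in spermatocytes and 1250 in spermatids. That of 6 pachytene markers was 1028, 886, 31639 and 28227 in the same order, and of these Sycp1 (a synaptonemal complex protein) read 220.0 in spermatocytes against 319 in type B spermatogonia, and Sycp3 read 60.4 in spermatocytes, under the highest negative control of that array. Ldhc (a germ cell lactate dehydrogenase) read 8691 in spermatocytes against 1.70 in type B. Whether the Sycp values come from the probe sets or from the preparation was not tested, and every ratio to spermatocytes carries that doubt. The summed signal of 8 round spermatid markers was 270.4, 306, 4206 and 32228. In spermatids Prm1 read 14320 and Tnp2 10430.5 of that sum, while Prm2 read 67.3. Spaca1 went the other way, at 57.7, 60.4, 38.1 and 20.5, under the floor in spermatids. In spermatocytes 5 of these 8 were over the floor, among them the protamine gene Prm1 at 1321, while Acrv1, an acrosomal gene, read 46.5, under the floor. Type B spermatogonia read 8958 over 5 fibroblast markers, all over the floor, against 3959 in type A, 114 in spermatocytes and 352 in spermatids. The part of such RNA in the ratios below was not tested. In bulk RNA, fewer cells of a type and less RNA per cell cannot be told apart.

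Of the 7 measured axonemal dynein genes 5 were at least 4-fold higher in spermatocytes than in type B, as were the flagellar kinesins Kif3b and Kif9, the dynein 2 heavy chain Dync2h1 and the light chain Dynlrb2, up to at least 59.9-fold for Dnali1. Conventional kinesin (Kif5a, Kif5b), the light chains Dynlrb1 and Dynlt3 and the division kinesins Kif22 and Kif23 were at least 2-fold lower there. In the representative probe sets spermatids held the highest signals of Kif17, Dynll2, Dynll1 and Kifbp. The other measured sets of Dynll2 were highest in type A. Between type A and type B spermatogonia 3 motor genes were past 2-fold. At the pachytene step 13 of the 50 measured motor genes were at least 2-fold higher, or 26%, against 16.2% of all measured genes, and 8 were at least 2-fold lower, or 16%, against 21.9%. Past 4-fold, 9 motor genes were higher (7.46% of all genes) and 3 were lower (5.14%). At the spermatid step 6 motor genes were at least 2-fold higher (12%, against 9.07% of all genes) and 9 at least 2-fold lower (18%, against 11.8%). Past 4-fold there were 2 higher (3.84% of all genes) and 0 lower (1.96%). At the B step 1 was higher (3.6% of all genes) and 2 were lower (3.62%), with 0 past 4-fold either way (0.154% and 0.162% of all genes), while under spike-in scaling 21 motor genes and 30.5% of all genes were lower at that step. All these genes passed the floor in at least 1 cell type, which a gene high in a single cell type does through that cell type.

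**Figure D1:**
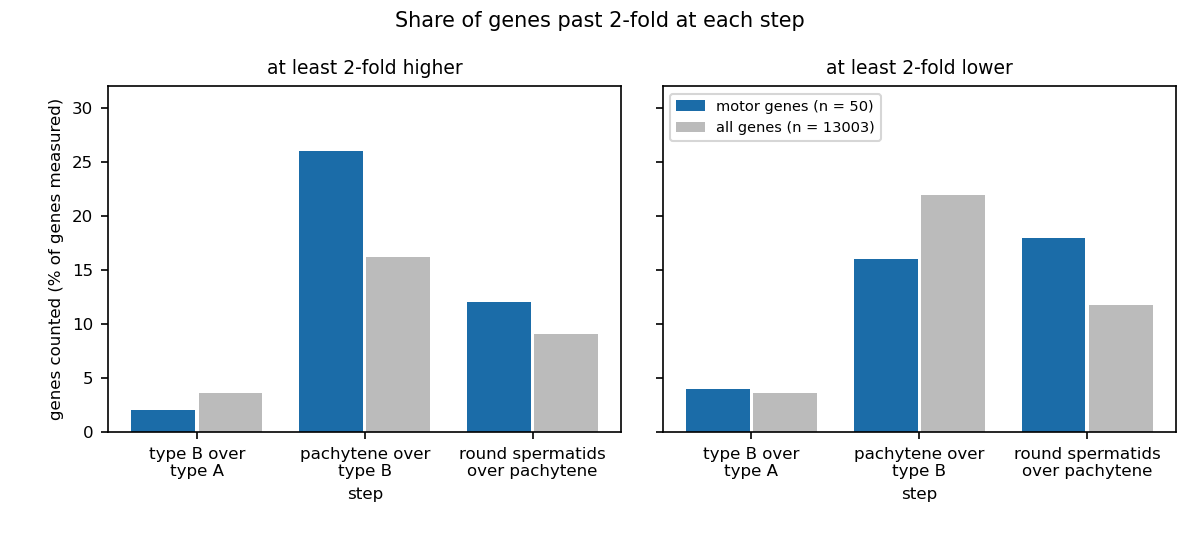
Bars show the percentage of measured genes that were at least 2-fold higher (left panel) or lower (right panel) at each step between neighbouring cell types, for the 50 motor genes and for all 13003 genes. At the pachytene step the motor genes stand at 26% higher and 16% lower, against 16.2% and 21.9% of all genes.

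The median log2 ratio of the 50 motor genes was -0.15 at the B step, -0.10 at the pachytene step and -0.24 at the spermatid step, against 0, -0.21 and 0 over all genes. Scaling to the spike-in controls moved the median over all genes by -0.69 at the B step and by 0.42 at the pachytene step, scaling to a common median moved the pachytene step by 0.31, and quantile normalization moved it by 0.17. With these shifts the split of motor genes at the pachytene step was 18 higher and 4 lower under the common median (23.8% and 11.6% of all genes) and 17 higher and 4 lower under spike-in scaling (26% and 9.04% of all genes). Spermatocytes had the highest signal by at least 2-fold for 5 of the 50 genes (Dnah7a, Dnah8, Dnali1, Dync1i2 and Kif3b), against 3.72% of all genes. Spermatids had it for 4 (Dynll1, Dynll2, Kif17 and Kifbp), against 5.81% of all genes. Neither kind of spermatogonia had it for any motor gene, against 1.75% of all genes in type A and 1.38% in type B.

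**Figure D2:**
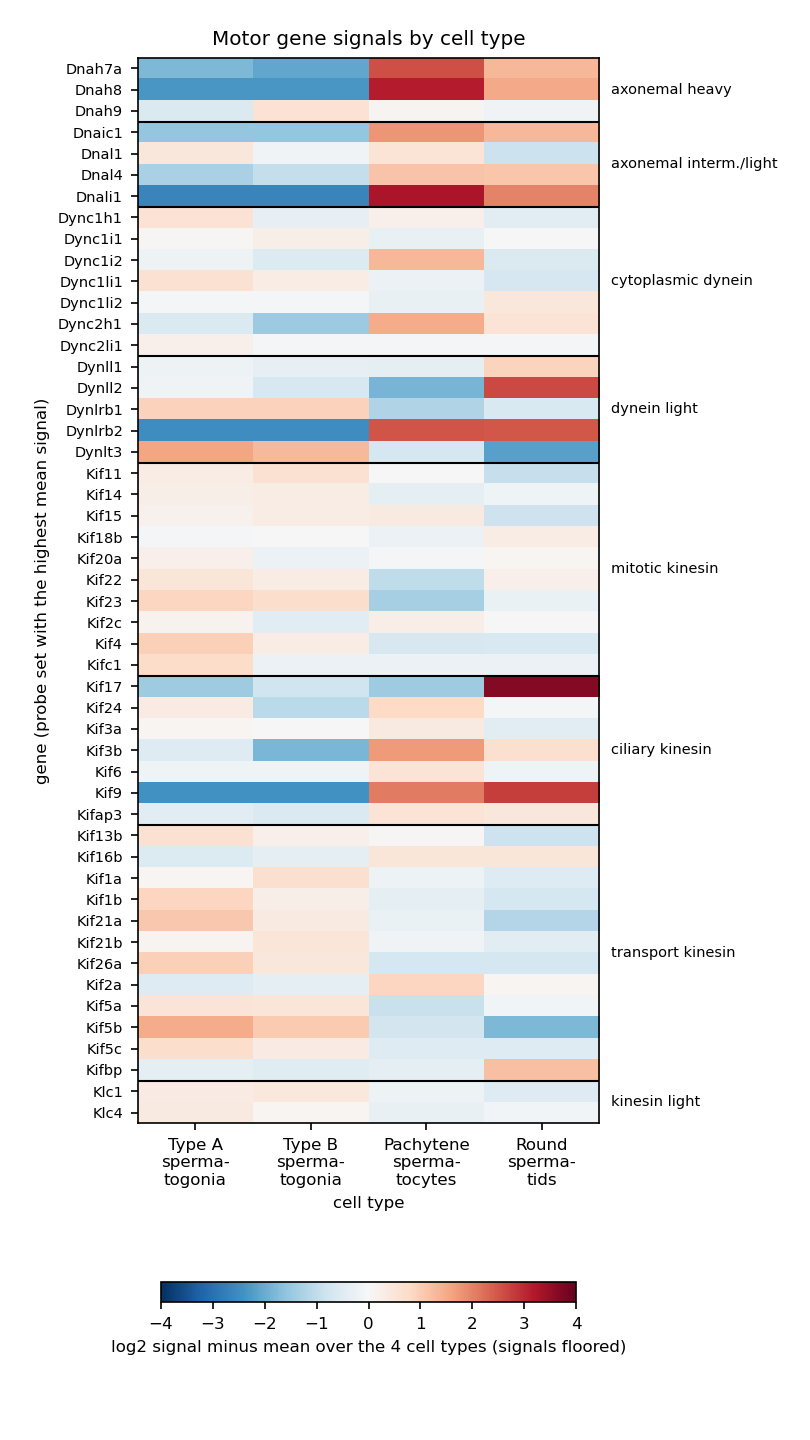
Each row is a motor gene and each column a cell type, and the colour is the log2 signal (floored) minus the gene's mean over the 4 cell types, so that red is above and blue below that mean. Dnah7a, Dnah8, Dnali1, Dynlrb2, Kif9 and Kif3b are red in spermatocytes, Kif17 and Dynll2 in spermatids, and Kif5b and Dynlt3 in spermatogonia.

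Axonemal heavy chains are the large ATPases of the dynein arms. Dnah8, a heavy chain of the outer arm in the sperm tail, read 6.20 in type A, 7.80 in type B, 2224 in spermatocytes and 728 in spermatids. It was under the floor in both spermatogonia and high in both later cell types, at least 44.5-fold higher in spermatocytes than in type B and 3.06-fold lower in spermatids than in spermatocytes. Its other probe set on the same design read 20.8, 9.90, 884 and 584 in the same order of cell types. That is at least 17.7-fold higher at the pachytene step, and 1.51-fold lower in spermatids than in spermatocytes.

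Dnah7a, an inner arm heavy chain, read 82.1, 67.7, 1698 and 714 from type A spermatogonia to spermatids. Its pachytene signal was 25.1-fold that of type B spermatogonia, and its spermatid signal 2.38-fold lower than the pachytene one. Dnah9, another outer arm heavy chain, read 57.9, 128, 92.3 and 78.4. It was the only motor gene at least 2-fold higher in type B than in type A spermatogonia (2.21-fold), with the type A signal under the highest negative control. The ratio was 1.25-fold in its other probe set, and its log2 value was 0.42 under spike-in scaling, 0.36 with the floor doubled and 0.73 as the mean over probe sets. Dnah5, an outer arm heavy chain of motile cilia, stayed under the floor in every cell type, with a highest signal of 38.0.

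Of the 4 smaller axonemal chains, 3 were at least 2-fold higher in spermatocytes than in type B. Dnali1, a light intermediate chain of inner arms, read 7.10, 4.70, 2996 and 1213 from type A spermatogonia to spermatids, and a second probe set read 17.2, 14.0, 1897 and 953, while one more was under the floor in every cell type. The first 2 are at least 59.9-fold and at least 37.9-fold higher in spermatocytes than in type B. Both of these read lower in spermatids than in spermatocytes, by 2.47-fold and 1.99-fold, and the log2 ratio of that step was -0.87 under spike-in scaling and -0.77 as the mean over probe sets.

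Dnaic1, the intermediate chain of the outer arm now called Dnai1, read 2.10, 6.0, 493 and 370.1, under the floor in both spermatogonia and at least 9.86-fold higher in spermatocytes than in type B. The ending of its only probe set marks possible sharing with other genes. Dnal4, a light chain, read 57.9, 73.9, 318 and 305, a 4.30-fold pachytene excess that was nearly level in spermatids (1.04-fold lower). Dnal1, a light chain that binds the outer arm heavy chain, read 161, 107, 172 and 65.4. It was 1.61-fold higher at the pachytene step and 2.62-fold lower at the next, where its other probe set was 1.79-fold lower and the doubled floor left a log2 ratio of -0.78.

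Cytoplasmic dynein 1 subunits were spread over all cell types. Dync1h1, its heavy chain, read 1312, 701, 1028 and 659 from type A spermatogonia to spermatids, with no step past 2-fold. The intermediate chains, which link the motor to dynactin, differed from each other. Dync1i1 read 278, 317, 222 and 276, level within 1.43-fold at each step. Dync1i2 read 143, 113, 414 and 111, so spermatocytes alone were high, 3.67-fold over type B spermatogonia, and spermatids were 3.71-fold lower than spermatocytes.

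The light intermediate chain gene Dync1li1 was lower at each step, with 845, 690.2, 469.7 and 350.0 units, each step under 2-fold. Dync1li2 gave different pictures by probe set. The one with the highest mean read 335, 342, 287 and 488, highest in spermatids. A pair on U74Bv2 read 231, 201, 404 and 75.7, and 108, 107, 271 and 75.5, highest in spermatocytes. In that pair spermatocytes were 2.01-fold and 2.54-fold over type B spermatogonia, and spermatids 5.34-fold and 3.59-fold lower than spermatocytes.

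Cytoplasmic dynein 2 is the retrograde motor of intraflagellar transport. Its heavy chain gene Dync2h1 read 399, 219, 1674 and 885 from type A spermatogonia to spermatids in one probe set, and 130.4, 47.3, 649 and 285 in the other. Both were highest in spermatocytes, at 7.64-fold and at least 13.0-fold over type B spermatogonia. Spermatids were lower than spermatocytes by 1.89-fold and 2.28-fold. Its light intermediate chain Dync2li1 exceeded the floor in type A spermatogonia alone, at 60.8. The highest negative control was 55.1 on that array and 62.4 over the arrays of that design.

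**Figure D3:**
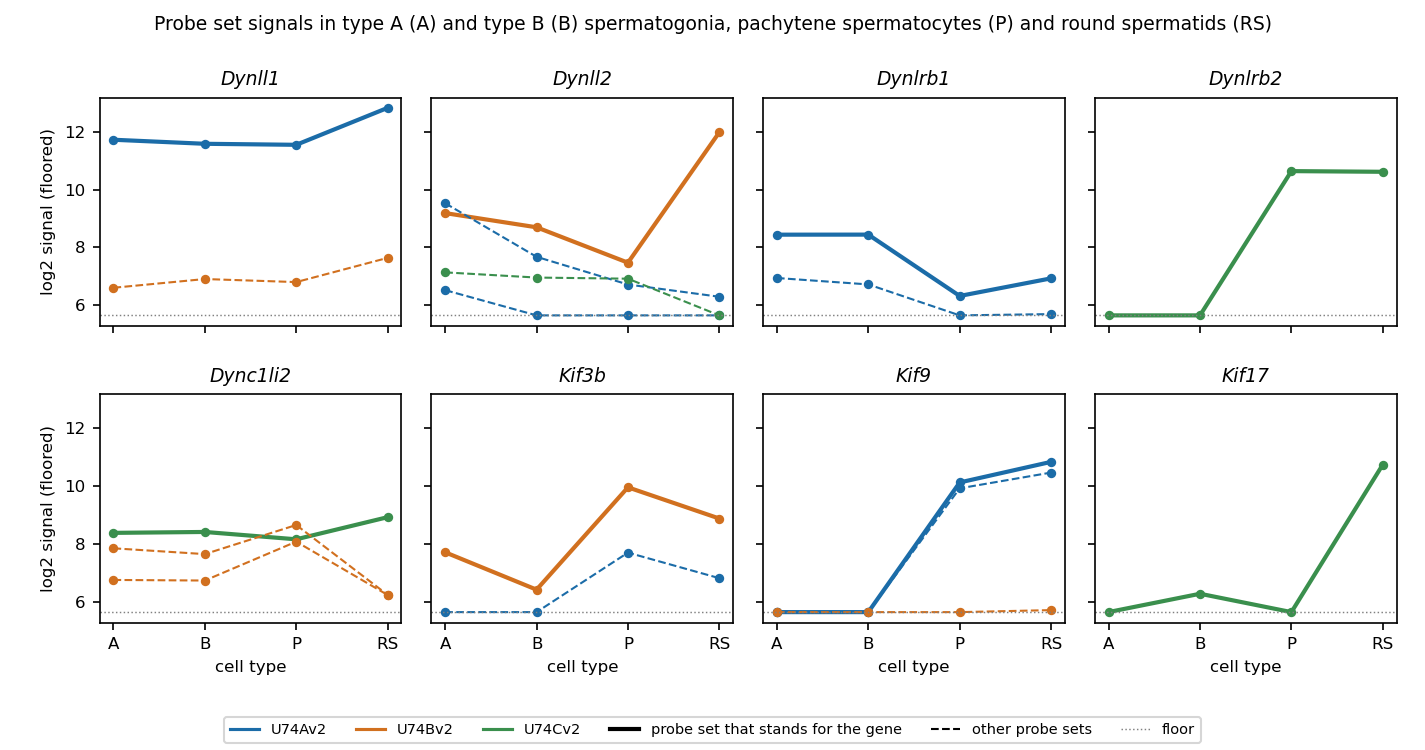
Lines join the log2 signals (floored, dotted line at the floor) of each probe set of 8 motor genes over the 4 cell types, coloured by array design, with the set that represents the gene drawn solid. Both sets of Kif3b are higher in spermatocytes than in type B, and in Dynll2 the U74Bv2 set is highest in spermatids (4045) while a U74Av2 set is highest in type A spermatogonia (736).

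Among the light chains, paralogs differed in direction at the pachytene step. Dynlrb1 and Dynlrb2 are roadblock light chains that bind dynein intermediate chains. Dynlrb2 read 6.90, 20.2, 1592 and 1567 from type A spermatogonia to spermatids, under the floor in both spermatogonia and near level in the later cell types, at least 31.8-fold higher in spermatocytes than in type B. Dynlrb1 read 347, 347, 79.7 and 122, so spermatocytes were 4.36-fold lower than type B spermatogonia. Its other probe set, of 123, 105, 33.2 and 51.6, was at least 2.10-fold lower at that step.

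Dynll1 and Dynll2 encode the LC8 light chains, which are also subunits of complexes other than dynein. Dynll1 read 3379, 3066, 2992 and 7257, highest in spermatids at 2.43-fold over spermatocytes, in a probe set whose ending marks possible sharing with other genes. The other set was 1.79-fold higher at that step, and the log2 ratio was 0.93 after quantile normalization and 0.84 without special endings. Dynll2 had 4 probe sets over the floor that disagree. The U74Bv2 set, which has the highest mean, read 582, 414, 177 and 4045, or 22.9-fold higher in spermatids than in spermatocytes. A U74Av2 set read 736, 204, 105 and 78.2 and the U74Cv2 set 140.3, 124, 121 and 47.8, and at that step they were 1.34-fold and at least 2.41-fold lower. Another U74Av2 set read 91.6, 46.8, 41.5 and 31.7, over the floor in type A alone. Apart from the representative set, every measured set was highest in type A. On U74Av2 alone the log2 ratio of spermatids over spermatocytes was -0.42. At the pachytene step the representative set was 2.34-fold lower and the first U74Av2 set 1.94-fold lower. The log2 ratio of that step was -0.63 under a common median, -0.65 under spike-in scaling and -0.56 as the mean over probe sets.

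Dynlt3, an X-linked Tctex-type light chain gene, read 749, 623, 155 and 55.6, lower at each step. The ending of this set marks possible sharing with other genes, and its spermatid signal was under the highest negative control of that array. Its other sets were under the floor in every cell type. Spermatocytes were 4.01-fold lower than type B spermatogonia and spermatids 2.80-fold lower than spermatocytes. As the mean over probe sets these log2 ratios were -0.50 and -0.37, and the second was -0.64 with the floor doubled.

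The kinesins of cilia and flagella held 4 of 7 measured genes that were at least 2-fold higher in spermatocytes than in type B, and none that was 2-fold lower, against 16.2% and 21.9% of all genes. Kif9, known from the central pair of motile flagella, read 12.3, 4.50, 1121 and 1838 from type A spermatogonia to spermatids, and a second set on the same design read 6.0, 22.7, 974 and 1422. Both were under the floor in spermatogonia and highest in spermatids, at least 22.4-fold and at least 19.5-fold higher at the pachytene step, then 1.64-fold and 1.46-fold higher in spermatids than in spermatocytes. A set on U74Bv2 exceeded the floor in spermatids alone, at 52.5.

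Kif3a and Kif3b are the motor subunits of heterotrimeric kinesin-2, and Kifap3 is its non-motor subunit. Kif3b read 210.0, 85.7, 998 and 472. It was highest in spermatocytes, 11.6-fold over type B spermatogonia, and a set on U74Av2 that read 32.6, 31.7, 208 and 113 was at least 4.17-fold higher at that step. Spermatids were 2.11-fold lower than spermatocytes in the representative set and 1.85-fold lower in the other, with log2 ratios of -0.96 after quantile normalization and -0.98 as the mean over probe sets. Type B spermatogonia were 2.45-fold lower than type A spermatogonia, a step at which the other set was under the floor on both sides and the log2 ratio was -0.65 as the mean over probe sets. Kifap3 read 74, 66.1, 143 and 134, 2.17-fold higher at the pachytene step, with a log2 ratio of 0.52 under the doubled floor and 0.56 as the mean over probe sets.

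Kif3a read 201, 193, 243 and 141 in the representative set, with no step past 2-fold. Of its 3 other measured sets, those over the floor at the spermatid step disagreed. A U74Av2 set read 135 in spermatids against 105 in spermatocytes, and a U74Bv2 set 27.0 in spermatids against 127 in spermatocytes. Another U74Bv2 set was under the floor in both, at 15.3 in spermatids and 19.7 in spermatocytes. Kif24, a kinesin of the centriole, read 131, 22.5, 181 and 103, with type B spermatogonia alone under the floor. That is at least 2.62-fold lower in type B than in type A spermatogonia and at least 3.61-fold higher in spermatocytes than in type B, with log2 ratios of -0.39 and 0.85 under the doubled floor. Kif6 exceeded the floor in spermatocytes alone, at 84.0.

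Kif17, the homodimeric kinesin-2, which in mouse spermatids is known to bind a coactivator of the transcription factor CREM, exceeded the negative controls in spermatids alone. It read 50.1, 77.7, 46.3 and 1721 from type A spermatogonia to spermatids. The first 3 values were under the highest negative control of that design, and spermatids were at least 34.4-fold higher than spermatocytes. The spermatid markers stood at a summed 32228 in spermatids against 4206 in spermatocytes on the same arrays, and their relation to Kif17 was not tested.

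The promoters of 4 motor genes that hold an X-box, the site of RFX factors that control many genes of cilia, are shown. All 4 genes were highest in spermatocytes or spermatids. Dnah9, Kif23 and Klc4, which hold an X-box too and are not shown for it, were highest in spermatogonia. Sequences are from RefSeq on GRCm38.p6, each from 250 bases before to 50 after the start of the gene, 5′ to 3′ along the gene's strand. The X-box was searched on both strands as GTNNCC followed by NGNAAC, directly or after up to 3 further bases, and stands in capitals. In Kif17 the capitals mark also the cAMP response element TGACGTCA, which CREM and related factors bind. Dynlrb2 lies at chr8:116504765-116505064, Dnaic1 at chr4:41569544-41569843, Kif9 at chr9:110476708-110477007 and Kif17 at chr4:138262001-138262300, all on the plus strand, and for Kif9 the window is 1 of 2 listed.
Dynlrb2: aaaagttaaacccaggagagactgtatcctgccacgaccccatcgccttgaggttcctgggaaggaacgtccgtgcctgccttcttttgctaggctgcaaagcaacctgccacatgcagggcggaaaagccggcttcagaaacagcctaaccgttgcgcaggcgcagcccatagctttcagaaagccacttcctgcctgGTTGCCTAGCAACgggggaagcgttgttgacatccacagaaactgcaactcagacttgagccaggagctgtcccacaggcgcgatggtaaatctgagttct
Dnaic1: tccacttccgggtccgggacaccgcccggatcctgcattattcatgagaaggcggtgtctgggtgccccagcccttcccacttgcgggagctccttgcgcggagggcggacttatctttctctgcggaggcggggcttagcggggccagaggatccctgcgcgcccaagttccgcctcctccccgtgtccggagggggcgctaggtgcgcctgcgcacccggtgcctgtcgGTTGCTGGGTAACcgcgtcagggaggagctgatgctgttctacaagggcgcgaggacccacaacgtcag
Kif9: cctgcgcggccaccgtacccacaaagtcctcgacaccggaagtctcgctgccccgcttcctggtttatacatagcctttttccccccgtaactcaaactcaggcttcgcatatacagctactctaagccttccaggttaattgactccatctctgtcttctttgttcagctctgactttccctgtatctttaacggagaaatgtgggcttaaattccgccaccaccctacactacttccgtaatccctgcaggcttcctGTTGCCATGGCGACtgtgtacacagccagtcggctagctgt
Kif17: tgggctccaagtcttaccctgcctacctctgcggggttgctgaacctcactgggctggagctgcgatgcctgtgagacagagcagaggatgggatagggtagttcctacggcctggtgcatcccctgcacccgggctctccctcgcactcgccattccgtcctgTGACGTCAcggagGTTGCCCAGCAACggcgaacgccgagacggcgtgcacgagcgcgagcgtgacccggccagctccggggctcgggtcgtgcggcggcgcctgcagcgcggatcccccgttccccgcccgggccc

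The promoter table held 49 of the 61 motor genes. An X-box of these forms was found in 9 of 49 (18.4%), against 5.94% of all 27025 genes in the table. They were Dnah9, Dnaic1, Dynlrb2, Kif18a, Kif18b, Kif23, Kif17, Kif9 and Klc4. By class, 3 of 12 mitotic kinesins (25%) and 2 of 7 ciliary and flagellar kinesins (28.6%) in the table held it. The shorter letters GTTGCC, which an X-box of Dynlrb2, Kif9 or Kif17 also contains, were in 16 of 49 (32.7%), against 14.1% of all genes. Of the 13 motor genes at least 2-fold higher at the pachytene step, all in the table, 3 held an X-box (Dnaic1, Dynlrb2 and Kif9) and 7 held GTTGCC (Dnah7a, Dync1i2, Dync2h1, Dynlrb2, Kif24, Kif9 and Kif2a). TGACGTCA was found in 4 of 49 motor genes (Kif18a, Kif17, Kif5c and Klc1), or 8.16%, against 2.03% of all genes. A match describes letters in the window and does not show a bound site. The motifs were chosen after these promoters had been searched, so the shares describe the promoters and test nothing.

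The mitotic kinesins, which build the spindle and divide the cell, had signals spread over all cell types. Of 10 measured genes, 2 were at least 2-fold lower in spermatocytes than in type B, close to the 21.9% of all genes, and none was 2-fold higher (16.2% of all genes). The median log2 ratio at that step was -0.42, and 0.09 under spike-in scaling. Kif23, a subunit of centralspindlin in the midbody, read 389.5, 350.3, 86.2 and 179 from type A spermatogonia to spermatids. Spermatocytes were lowest, 4.06-fold under type B spermatogonia, and a U74Cv2 set of 153, 160.2, 61.2 and 91.3 was 2.62-fold lower. Spermatids were higher than spermatocytes by 2.08-fold and 1.49-fold in these sets, with log2 ratios of 0.80 under spike-in scaling, 0.84 under the doubled floor and 0.54 as the mean over probe sets.

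Kif22, a kinesin that binds chromosomes, read 994, 873, 349.6 and 811. Spermatocytes were again lowest, 2.50-fold under type B spermatogonia, and spermatids were 2.32-fold higher than spermatocytes. The log2 ratios of the pachytene step were -0.80 under a common median, -0.55 under spike-in scaling and -0.66 as the mean over probe sets, and those of the next step 0.95 under spike-in scaling and 0.61 as the mean. Kif15, a spindle kinesin, read 367, 403, 418 and 185, lowest in spermatids at 2.25-fold under spermatocytes. Its other sets were at least 1.80-fold and 1.58-fold lower there, and the log2 ratio was -0.93 after quantile normalization, -0.67 as the mean over probe sets and -0.84 without special endings.

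No step of the remaining mitotic kinesins was measured past 2-fold in the representative set, but 3 steps are bounds just under it: Kifc1 at the B step (at least 1.97-fold lower), Kif4 at the pachytene step and Kif11 at the spermatid step (each at least 1.93-fold lower). Kif11, which pushes spindle poles apart, read 118, 146, 96.6 and 43.0, under the floor in spermatids alone. Kif20a, a kinesin of cytokinesis, read 797, 581, 668 and 726 in a set whose ending marks possible sharing with other genes, and 244, 142, 302 and 223 in its other set, which was 2.13-fold higher at the pachytene step, where the representative set was 1.15-fold higher. Kif2c, a microtubule depolymerase of centromeres, read 433, 289.7, 475 and 401. Kif14, which acts with citron kinase in cytokinesis, read 162, 169, 108 and 123, and Kif18b, a kinesin of astral microtubules, read 217, 233, 196 and 286. Kif4, an X-linked chromosome kinesin, read 149.9, 96.6, 24.1 and 51.6, and the minus-end motor Kifc1 read 98.7, 27.0, 21.8 and 27.7, over the floor in type A spermatogonia alone.

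The promoters of Kif23 and Kif11 are shown because they hold both elements typical of cell division genes, the CHR (cell cycle genes homology region) TTTGAA and the CCAAT box CCAAT, which stand in capitals as read on either strand. Kif23 lies at chr9:61946750-61947049 on the minus strand and Kif11 at chr19:37376132-37376431 on the plus strand.
Kif23: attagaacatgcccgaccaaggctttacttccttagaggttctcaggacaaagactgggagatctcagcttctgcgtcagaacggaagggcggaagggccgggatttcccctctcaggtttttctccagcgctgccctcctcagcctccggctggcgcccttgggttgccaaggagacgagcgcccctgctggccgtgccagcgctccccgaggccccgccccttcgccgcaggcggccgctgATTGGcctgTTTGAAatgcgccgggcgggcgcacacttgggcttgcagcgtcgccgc
Kif11: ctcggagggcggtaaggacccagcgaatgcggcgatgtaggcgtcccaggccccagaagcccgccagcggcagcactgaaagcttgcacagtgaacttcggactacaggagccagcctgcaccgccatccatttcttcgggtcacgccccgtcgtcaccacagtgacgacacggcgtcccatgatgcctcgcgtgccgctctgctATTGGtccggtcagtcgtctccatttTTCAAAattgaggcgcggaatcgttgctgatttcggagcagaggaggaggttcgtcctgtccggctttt

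TTTGAA was found on either strand in 11 of 12 mitotic kinesin genes in the table (91.7%), the exception being Kif18a, against 20.2% of all genes and 13 of the 49 motor genes (26.5%). The other motor genes with it were Dnah8 and Kif1a. CCAAT was in 8 of the 12 (66.7%), against 41.1% of all genes and 22 of 49 motor genes (44.9%). Both motifs were chosen after these promoters had been searched, so these shares too are descriptive only. Kif22 and Kif23, both at least 2-fold lower at the pachytene step, held TTTGAA. So did the measured genes Kif11, Kif14, Kif15, Kif18b, Kif2c, Kif4 and Kifc1, none of which was counted as 2-fold lower there. Of these, the Kif4 ratio is a bound and Kifc1 was under the floor on both sides. Dnah8 was at least 44.5-fold higher at that step.

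**Figure D4:**
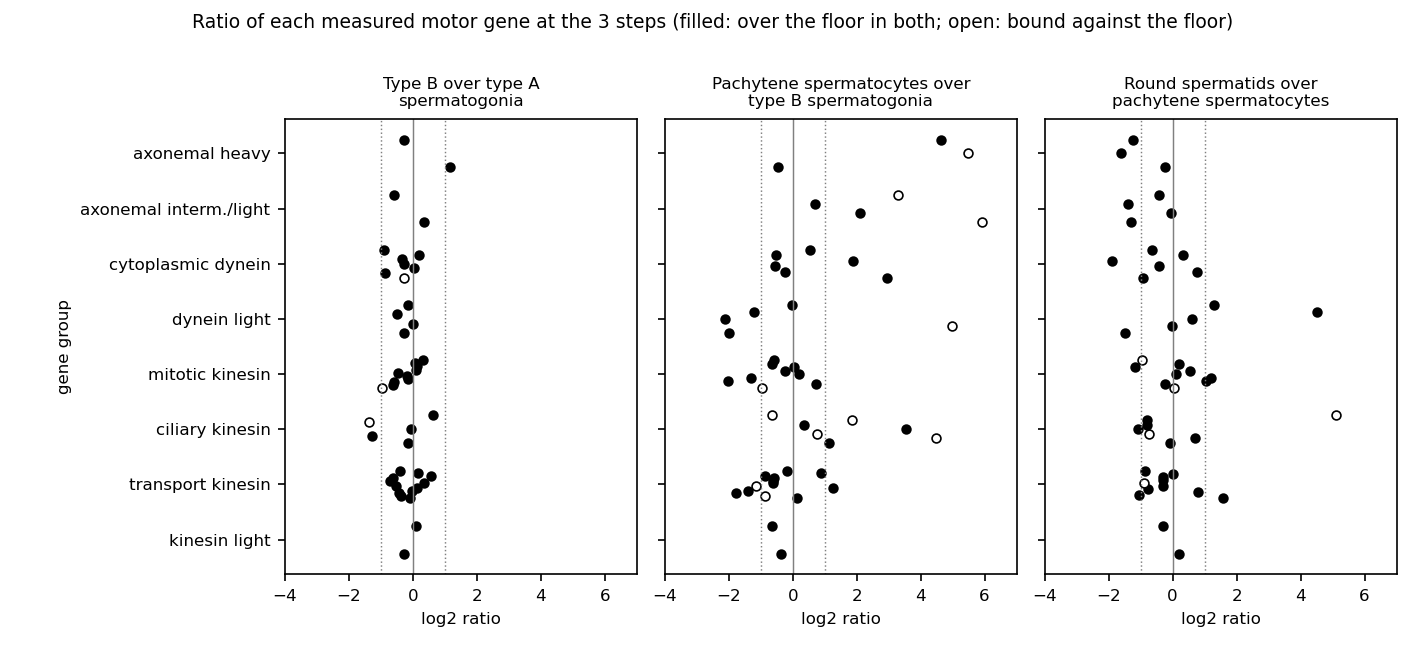
Points are the log2 ratios of motor genes by class at the 3 steps, filled where both signals were over the floor and open where the ratio is a bound, with dotted lines at 2-fold. Axonemal dyneins and ciliary kinesins reach 5.90 (Dnali1) at the pachytene step, the mitotic kinesins lie between -2.02 and 0.71, and Kif17 stands at 5.10 for spermatids over spermatocytes.

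The remaining Kif genes, for transport and other roles, form 1 class that also holds the depolymerase Kif2a and the non-motor Kifbp. Of its 12 measured genes, 1 (Kif2a) was higher and 3 were lower by at least 2-fold in spermatocytes than in type B. The shares of all genes were 16.2% and 21.9%. The median log2 ratio of the class was -0.62 (-0.03 under spike-in scaling, -0.02 under a common median). Kif5a, Kif5b and Kif5c are the heavy chains of conventional kinesin. Kif5b, the form found in most tissues, read 734, 542, 158 and 76.5 from type A spermatogonia to spermatids. Spermatocytes were 3.44-fold lower than type B spermatogonia, and its 2 other measured sets were 2.61-fold and at least 3.09-fold lower, while a set on U74Bv2 was under the floor in every cell type. Spermatids were 2.06-fold lower than spermatocytes, while the set on U74Cv2 was at least 1.41-fold higher, and the log2 ratio was -0.85 after quantile normalization, -0.66 under the doubled floor, -0.19 as the mean over probe sets and -0.20 without special endings and on U74Av2 alone. At the pachytene step the summed markers of several other cell types were lower as well. Those of fibroblasts read 114 in spermatocytes against 8958 in type B (1 of 5 over the floor in spermatocytes). For peritubular myoid cells the sums were 475 in spermatocytes against 3615 in type B (4 of 5). For Sertoli cells they were 879.8 in spermatocytes against 1816 in type B (5 of 7). For leukocytes they were 90.1 in spermatocytes against 486 in type B (0 of 5). Those of Leydig cells read 663 in spermatocytes against 681 in type B (3 of 5). The part of these cell types in the lower motor signals was not tested.

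Kif5a, known from neurons, read 262, 259, 98.3 and 171, lowest in spermatocytes at 2.63-fold under type B spermatogonia, and a U74Bv2 set was 2.64-fold lower, but a second U74Cv2 set read 144, 212, 155 and 212, lowest in type A and 1.37-fold lower at that step, and 2 others were under the floor in every cell type. The log2 ratio was -0.97 under a common median, -0.63 under spike-in scaling and -0.65 as the mean over probe sets. Kif5c read 119, 91.2, 28.2 and 20.9, over the floor in spermatogonia alone. The kinesin light chain Klc1, which pairs with the Kif5 heavy chains, read 1591, 1717, 1101 and 884, under 2-fold at each step, but a U74Av2 set of 216, 234, 58.8 and 58.3 was 3.98-fold lower at the pachytene step. Klc4 read 222, 183, 141 and 163.

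Kif2a, a microtubule depolymerase, read 110.4, 119, 284 and 165, highest in spermatocytes at 2.38-fold over type B spermatogonia. Kif26a read 159, 111, 24.3 and 11.5, under the floor in both later cell types and at least 2.21-fold lower at the pachytene step. Its log2 ratio was -0.84 under a common median, -0.68 under spike-in scaling, -0.91 after quantile normalization and -0.14 under the doubled floor. Kifbp, a protein that binds kinesins and is no motor itself, read 364, 339, 370.0 and 1103 in the representative set. That set was level until spermatids, which were 2.98-fold over spermatocytes, and 2.20-fold in a set on U74Cv2. Another U74Cv2 set read 36.0, 104, 14.5 and 36.5, over the floor in type B alone. It was at least 2.09-fold higher at the B step and at least 2.09-fold lower at the pachytene step. The mean over the Kifbp probe sets gave a log2 ratio of 0.90 at the spermatid step.

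Kif1a and Kif1b carry vesicles and, for Kif1b, mitochondria. Kif1a read 170.2, 251, 139 and 112, with no step past 2-fold. Kif1b read 435, 283, 186 and 149.7 in the representative set, lower at each step. Of its 5 other sets 2 were under the floor in every cell type, and the 3 measured ones did not all follow it. At the spermatid step a U74Av2 set read 172 in spermatids against 58.5 in spermatocytes, or 2.94-fold higher, and a U74Bv2 set read 191 in spermatids against 111 in spermatocytes. At the pachytene step another U74Bv2 set read 10.7 in spermatocytes against 172 in type B, at least 3.43-fold lower. The representative set was 1.52-fold lower there, while the U74Av2 set was at least 1.17-fold and the first U74Bv2 set 1.97-fold higher. No step of the other genes in this class was measured past 2-fold in the representative set. Kif13b read 831, 634, 562 and 307 and Kif21a read 238, 144, 93.7 and 3.90, both lowest in spermatids, where the Kif21a ratio to spermatocytes is a bound (at least 1.87-fold lower). Kif21b read 518, 664, 431 and 347. Kif16b, a kinesin of endosomes, read 51.6, 57.2, 105 and 107, with spermatocytes 1.83-fold over type B.

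How far the probe sets of a gene agreed differed by step. Of 21 motor genes past 2-fold at the pachytene step, 10 had another measured probe set, and in 9 of them another set was past 2-fold in the same direction, the exception being Dynll2. Of 15 past 2-fold for spermatids over spermatocytes, 10 had another measured set, and in 1 (Kifbp) another was past 2-fold in the same direction. Sets with special endings represented 7 of the 21 (Dnaic1, Dnali1, Dynlrb1, Dynlt3, Kif22, Kifap3 and Kif5b). They represented 6 of the 15 (Dnali1, Dynll1, Dynlt3, Kif15, Kif22 and Kif5b). Across the alternative settings in which a gene was measured, 11 of the 13 genes higher at the pachytene step stayed past 2-fold, as did 3 of the 8 lower (Dynlrb1, Kif23 and Kif5b). For spermatids over spermatocytes, 1 of the 6 higher (Kif17) and 3 of the 9 lower (Dnah7a, Dnah8 and Dync1i2) stayed so. Of the genes that stayed at either step, Kif17, Dnah7a, Dync1i2, Dnaic1, Dnal4, Dynlrb2 and Kif2a have a single probe set each. For them the mean over probe sets, no special endings and U74Av2 alone either cannot change the ratio or leave the gene out. Some genes with several sets were left out of a setting too. Dnali1 was left out without special endings and on U74Av2 alone, Dynlrb1 without special endings, and Dync2h1 on U74Av2 alone.

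Genes that work with these motors were counted in the same way, and at the pachytene step their counts stand against 16.2% of all genes higher and 21.9% lower. At the spermatid step they stand against 9.07% of all genes higher and 11.8% lower. Of 26 measured genes of axonemal dynein assembly, docking and the axoneme, 24 were at least 2-fold higher and none 2-fold lower in spermatocytes than in type B, with a median log2 ratio of 3.43. Zmynd10, an assembly factor of dynein arms, read 3782 in spermatocytes against 6.80 in type B spermatogonia (at least 75.6-fold higher), and Spag6l, of the central pair, read 6609 in spermatocytes against 96.4 in type B (68.5-fold higher). For spermatids over spermatocytes 4 of the 26 were higher and 4 lower by at least 2-fold, against 9.07% and 11.8% of all genes. Among the higher was the tektin Tekt2, with 1434 in spermatids against 184 in spermatocytes. Among the lower was Zmynd10, with 1290.1 in spermatids against 3782 in spermatocytes.

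Of 22 measured genes of intraflagellar transport, 17 were at least 2-fold higher and none 2-fold lower at the pachytene step, with a median log2 ratio of 2.08. Wdr35 read 2001 in spermatocytes against 94.2 in type B spermatogonia, and Ift140 read 2982 in spermatocytes against 229 in type B, both in the particle that works with dynein 2. In spermatids 10 of the 22 were at least 2-fold lower than in spermatocytes and 1 was higher, against 11.8% and 9.07% of all genes. The median at that step was -0.70. The dynactin subunits and other dynein regulators had 3 of 16 higher and 2 of 16 lower at the pachytene step, shares near or under those of all genes, with a median of -0.03. The dynactin subunit Dctn2 read 1071 in spermatocytes against 177 in type B spermatogonia, and the adaptor Hook2 read 707 in spermatocytes against 74.2 in type B, while the adaptors Hook3 and Bicdl1 were 2.16-fold and 2.17-fold lower in spermatocytes. The adaptors of kinesin cargo had 3 of 9 higher and 4 of 9 lower.

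Of 15 mitotic partners of the kinesins, 3 were at least 2-fold higher and 1 was lower at the pachytene step, with a median of 0.41. The kinase gene Aurka read 1068 in spermatocytes against 126 in type B spermatogonia, and Prc1, which bundles midzone microtubules, read 964 in spermatocytes against 273 in type B. A list of transcription factors held 6 measured genes, namely Rfx1, Rfx2, Rfx3, Foxj1, Crem and Mybl1. Of these, 2 passed 2-fold higher and none 2-fold lower at the pachytene step. Rfx2 read 951 in spermatocytes against 44.7 in type B spermatogonia and Mybl1 read 1102 in spermatocytes against 257 in type B. The other 4 were under 2-fold or bounded by the floor there: Rfx1 read 365 in spermatocytes against 587 in type B, Rfx3 read 29.5 in spermatocytes against 76.6 in type B, Foxj1 read 53.6 in spermatocytes against 56.7 in type B, and Crem read 90.6 in spermatocytes against 42.0 in type B. At the spermatid step 2 were higher, Foxj1 with 952 in spermatids against 53.6 in spermatocytes and Rfx1 with 1366 in spermatids against 365 in spermatocytes, and Mybl1 was lower with 194 in spermatids against 1102 in spermatocytes. Crem read 58.9 in spermatids, 1.54-fold lower than in spermatocytes.

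**Figure D5:**
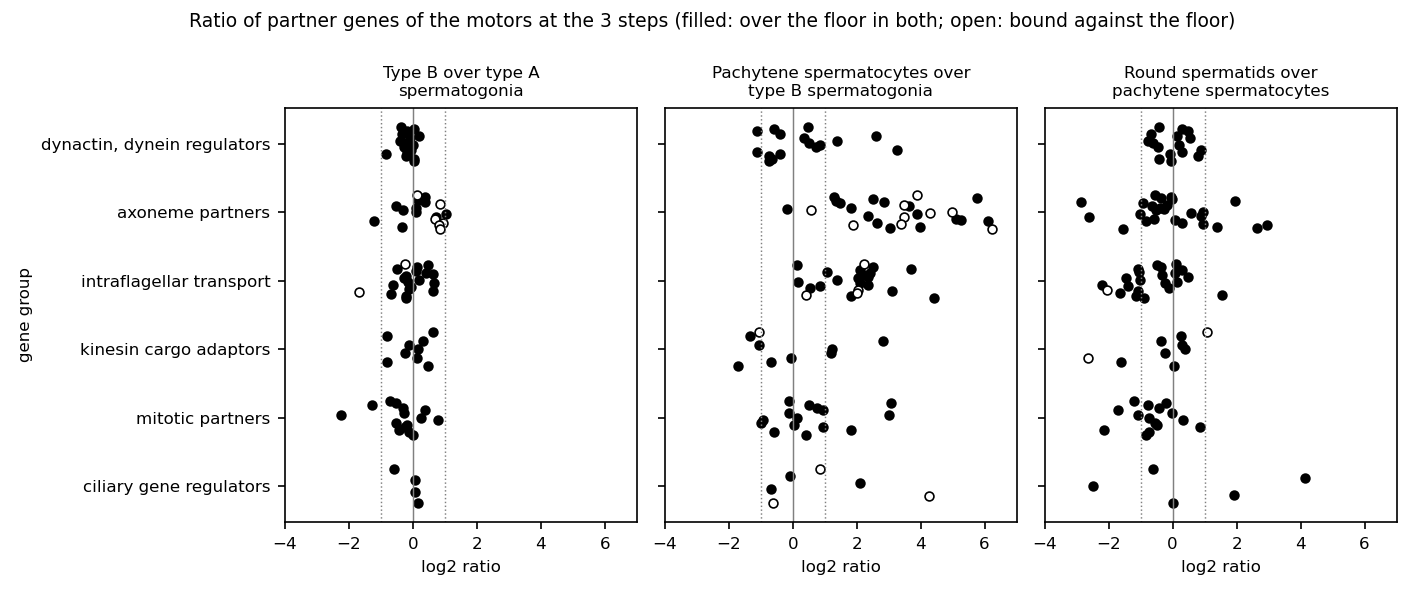
Points are the log2 ratios of genes in 6 lists of motor partners at the 3 steps, filled where both signals were over the floor and open where the ratio is a bound, with dotted lines at 2-fold. At the pachytene step the axoneme partners (median 3.43) and intraflagellar transport genes (median 2.08) lie mostly to the right, and the mitotic partners (median 0.41) on both sides.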

How the data were processed

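The authors deposited a linear intensity per probe set for each of 12 arrays. The submitters' processing notes name MAS5, of unstated version. The deposited 2% trimmed means lay between 125.0 and 125.1. From the deposited intensities, arrays of a design were brought to 1 trimmed mean (the geometric mean of the 4), floored at 0.4 of it and taken to log2. Symbols from the platform annotation (29131 probe sets with 1, 724 with several, 6846 with none) were updated through Entrez identifiers to RefSeq on GRCm38.p6, where 29044 matched. Controls were left out of gene counts.

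Ratios were taken within a design for 3 steps, and genes at least 2-fold and 4-fold apart were counted. Kinds of motor gene, partner lists, markers and the rule for named genes (up to 8 per class and step past 2-fold in each direction, all paralog sets, genes whose probe sets disagree, up to 4 per partner list) were chosen with earlier results of these data known. A gene named outside it (Dnah5, Dync1h1, Dync2li1, Kif4, Kif6, Kif11, Kif13b, Kif14, Kif16b, Kif18b, Kif20a, Kif21a, Kif21b, Rfx3, Crem) was chosen after its values were seen. The 5 promoter motifs were chosen after the promoters had been searched. Alternatives were no rescaling, a common median, spike-in scaling, quantile normalization, a floor 2 times as high, no floor, the mean over probe sets, no special endings, U74Av2 alone and a 4-fold threshold. Python 3.11.15, numpy 2.4.6, pandas 2.3.3, scipy 1.17.1 and matplotlib 3.10.9 were used, and the counting was tested on simulated data.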

Additional observations from a re-analysis of the deposited data

How the results depend on the processing

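No paired analysis was possible because each cell type had 1 array per design. Of type B over type A spermatogonia, the 1 motor gene at least 2-fold higher became 0 under spike-in scaling, the doubled floor, the mean over probe sets, U74Av2 alone and the 4-fold threshold, and 5 with no floor. The 2 lower became 21 under spike-in scaling, where 30.5% of all genes were lower, 1 under the doubled floor and on U74Av2 alone, 6 with no floor and 0 past 4-fold. Of pachytene spermatocytes over type B spermatogonia, the 13 higher became 7 on U74Av2 alone, where 25 motor genes were measured. The 8 lower became 4 under the common median and under spike-in scaling, 16 with no floor, 5 as the mean over probe sets, without special endings and on U74Av2 alone, and 3 past 4-fold. Of round spermatids over pachytene spermatocytes, the 6 higher became 13 with no floor, 2 as the mean over probe sets and 2 past 4-fold. The 9 lower became 14 under spike-in scaling and with no floor, 2 on U74Av2 alone and 0 past 4-fold. The other 34 recomputed counts stayed within 1.5 times. Dynll2 turned to a log2 ratio of -0.42 for round spermatids over pachytene spermatocytes on U74Av2 alone, which uses another probe set. For the other changes of scale the cause was not tested. The negative controls limit ratios with a low side under 62.4 on U74Bv2 and under 103.5 on U74Cv2, and on U74Av2, where the highest read 32.7, the floor sets the limit.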
